A study of Mus musculus with 4 samples.

Results

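The regions described here lie around 10 genes that encode the chromatin insulator protein CTCF and proteins of the cohesin complex and its regulators: Ctcf, Smc3, Rad21, Stag1, Nipbl, Mau2, Wapl, Pds5a, Pds5b and Esco1. They come from CTCF ChIP-seq (chromatin immunoprecipitation and sequencing) of left-ventricular cardiac myocytes of the mouse strain C57BL/6. A region was taken when its summit, the position of highest signal, lay within 50 kb of a gene span in mm10. This gave 21 of the 16128 regions of the library labelled CTCF knockout and 25 of the 20043 control regions. Each library came from a pool of 3 hearts of its genotype, so there was 1 ChIP library per genotype, and no test between genotypes was possible. The allele, the promoter driving the deletion, and the age of the animals are named nowhere in the labels used here. The region lists measure neither Ctcf RNA nor the deletion itself, and the second library is therefore called by its label.

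CTCF binds DNA through an array of zinc fingers and marks many borders of chromatin loops. Cohesin is a ring of SMC proteins closed by a kleisin subunit; it is loaded onto DNA, extrudes loops, is slowed or stopped at bound CTCF and is released again by dedicated factors. In dividing cells the same ring also holds sister chromatids together. The comparison asks which CTCF regions around the genes of this machinery were called in the library in which CTCF was the labelled target.

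Promoter sequences show what lies under the summits. RefSeq promoters of the GRCm38.p6 build, the assembly of mm10, were matched for 7 of the 10 genes, all but Rad21, Nipbl and Esco1. These windows run from 250 bases before to 50 bases after a transcription start. Only Pds5a and Pds5b had a control summit in their own promoter window, and the Ripor1 promoter, in the window of Ctcf, held another. These are printed because the Pds5b and Ripor1 regions were called in both libraries and the Pds5a region only in the control. Each is the part of the promoter upstream of the transcription start that lay inside the control region, read on the strand of the gene. Capitals mark matches, on either strand, to a core of the CTCF motif (CC, any 3 bases, AG, any 2 bases, GGC) or to its shorter variant AGNNGGCGC, where N is any base. The end of the longer motif is the beginning of the shorter one, so that a sequence can match both at overlapping positions.
Pds5b promoter, chr5:150673591-150673809, plus strand: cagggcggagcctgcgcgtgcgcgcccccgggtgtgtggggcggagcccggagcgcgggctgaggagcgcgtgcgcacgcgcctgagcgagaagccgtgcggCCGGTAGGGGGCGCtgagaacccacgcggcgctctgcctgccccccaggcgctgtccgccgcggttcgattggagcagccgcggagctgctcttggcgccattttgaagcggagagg
Pds5a promoter, chr5:65698299-65698486, minus strand: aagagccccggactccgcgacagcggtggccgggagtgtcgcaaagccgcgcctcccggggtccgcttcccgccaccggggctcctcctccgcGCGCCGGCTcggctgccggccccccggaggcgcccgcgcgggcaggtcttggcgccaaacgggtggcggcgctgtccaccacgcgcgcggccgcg
Ripor1 promoter, chr8:105604979-105605228, plus strand: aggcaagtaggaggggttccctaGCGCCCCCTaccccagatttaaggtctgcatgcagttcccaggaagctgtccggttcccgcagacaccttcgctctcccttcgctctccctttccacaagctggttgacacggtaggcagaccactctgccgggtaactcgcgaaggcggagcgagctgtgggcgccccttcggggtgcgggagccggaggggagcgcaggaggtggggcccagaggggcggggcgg

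In the Pds5b promoter the longer motif filled positions 103 to 114 of the printed sequence, counted from its 5′ end. The summit of the library labelled CTCF knockout fell on position 111, inside the motif, and the control summit on position 132. The Pds5a sequence held no match to the longer motif and 1 match to the shorter variant on the opposite strand, 36 bp from the control summit at position 138. In the Ripor1 promoter the shorter variant also lay on the opposite strand, at positions 24 to 32. It was 33 bp from the summit of the library labelled CTCF knockout, which lay just upstream of the printed part, and 126 bp from the control summit. Of the 8 promoter windows of the 7 matched genes, 1 held the longer motif and 4 held the shorter variant, which was added after the sequences had been seen. The 4 were those of Pds5a, Pds5b, Ctcf and Wapl, and the windows of Ctcf and Wapl overlapped no region in either list. Over all 32817 promoter windows the longer motif was present in 8.61% and the shorter one in 7.23%. Among the 907 windows with a summit of the library labelled CTCF knockout 46.3% held the longer motif, among the 1249 with a control summit 40.1%, and among the 31568 with no control summit 7.36%. For the shorter variant the shares were 40.2%, 36.7% and 6.07%, in the same order. A match describes the letters in a window and does not show that CTCF was bound to them.

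Of the 25 control regions around the 10 genes, 20 overlapped a region of the library labelled CTCF knockout by at least 1 bp (80.0%, exact binomial 95% interval 59.3 to 93.2%). Over the whole control list 69.0% did so, which lies within that interval. In the other direction, 1 of 21 regions of the library labelled CTCF knockout overlapped no control region (4.76%, interval 0.12 to 23.8%), against 14.2% of its whole list. This share depended on the overlap rule. With an overlap of at least 50% of both regions, 4 of 21 had no control region (19%, whole list 25.7%), and with summits within 100 bp again 4 of 21 (19%, whole list 19%). The number of regions in the library labelled CTCF knockout was 0.84 of the control number here (exact interval 0.447 to 1.56) and 0.805 over the whole lists. These intervals cover counting error only and compare 2 libraries, not the genotypes. Every region around Ctcf, Stag1, Mau2, Wapl and Esco1 was called in both libraries, while Smc3, Nipbl, Pds5a and Pds5b each had at least 1 control region without a counterpart. Thus 5 of 9 genes with a control region had all of them called in both, and 41.2% of the 15961 protein-coding genes with a control region in the same window did. Rad21 had no region in either list.

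**Figure D1:**
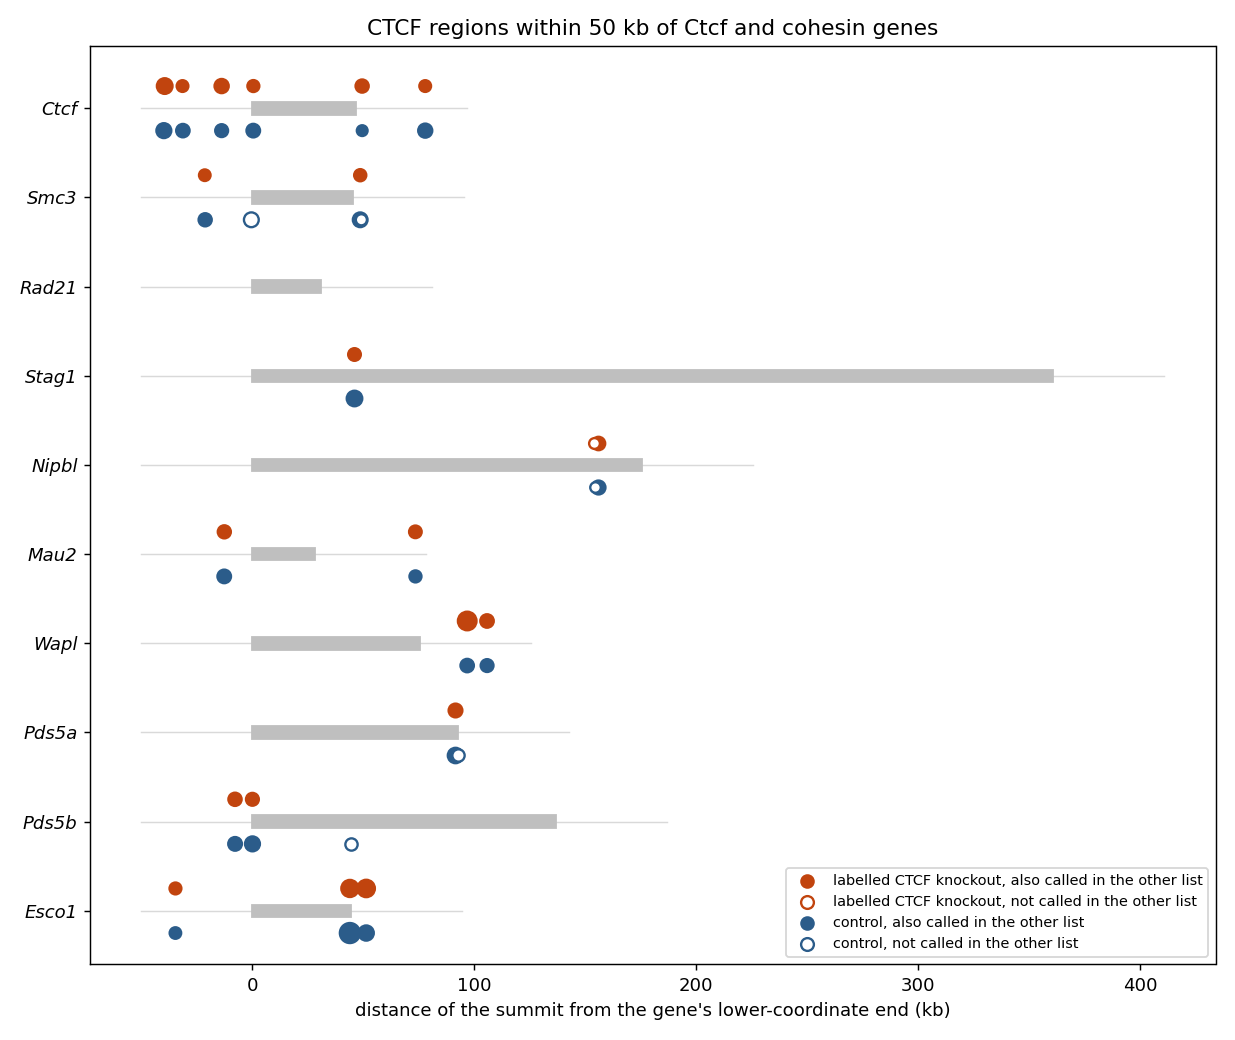
Summit positions of CTCF regions around each gene, as distance in kb from the lower-coordinate end of the gene span (grey bar; thin line, the window of 50 kb on each side), with the library labelled CTCF knockout above and the control below each gene. Circle size grows with the fold enrichment in the region's own list, and open circles are regions not called in the other list (1 in the library labelled CTCF knockout, 5 in the control).

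Each region carries a fold enrichment, which is the authors' ratio of the signal at its summit to a local background. Whether that background was taken from the ChIP library or from an input library is not given in the region lists. Values of both lists are given side by side, and no direction is read from them. The pileup, which is the number of reads covering the summit, was recovered from the fold enrichment and the −log10 p of each region and came out whole, within 0.001, for 100% of regions in both lists. The lowest local background was 0.851 reads in the list labelled CTCF knockout and 1.01 reads in the control list, a ratio of 0.846 that stands here for relative depth. Median pileups of the whole lists were 14 in the library labelled CTCF knockout and 15 in the control.

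Ctcf itself (chromosome 8, 105636474 to 105682922, plus strand) had the most regions of the 10 genes, 6 in each library, all of them called in both. One region lay just inside the gene, near its transcription start and outside the promoter window. Its summit was 351 bp downstream of the transcription start in the library labelled CTCF knockout (105636655 to 105636962) and 306 bp downstream in the control (105636717 to 105637104). The pileup there was 10 reads in the library labelled CTCF knockout (exact Poisson 95% interval 4.8 to 18.4) and 16 reads in the control (9.15 to 26.0), so that the intervals overlap. The fold enrichment of this region was 5.94 in the list labelled CTCF knockout and 8.47 in the control list.

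Around Ctcf the strongest region in either list lay 39.5 kb (library labelled CTCF knockout) and 39.9 kb (control) before the gene, inside Ripor1. It was also the widest, at 790 bp in the list labelled CTCF knockout and 683 bp in the control list, and its summits were 378 bp apart, the largest gap of all 20 shared regions. Its fold enrichment was 12.2 in the list labelled CTCF knockout and 10.8 in the control list, with 24 reads in the library labelled CTCF knockout and 27 in the control. The region at the Ripor1 promoter had 12 reads in the library labelled CTCF knockout and 18 in the control. At the higher-coordinate end of Ripor1, 13.9 kb before Ctcf, the library labelled CTCF knockout had 21 reads and the control 16. Beyond the other end of Ctcf, the region within 1 kb of an end of Carmil2 had 15 reads in the library labelled CTCF knockout and 9 in the control, where it was the weakest of the 6. The region within 1 kb of an end of Gfod2, 31.4 kb beyond Ctcf, had 12 reads in the library labelled CTCF knockout and 18 in the control. Reads were thus higher in the library labelled CTCF knockout at 2 of these 6 regions and lower at 4, and at all 6 the interval of the ratio covered 0.846.

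Smc3, Rad21 and Stag1 encode parts of the ring itself. Smc3 is an SMC subunit, Rad21 the kleisin that closes the ring, and Stag1 an accessory subunit through which the ring contacts CTCF. Smc3 (chromosome 19, 53600396 to 53645831, plus strand) had 2 regions in the library labelled CTCF knockout and 4 in the control. The control region of highest fold enrichment among the 4 was not called in the library labelled CTCF knockout. It lay 496 bp upstream of the transcription start (53599795 to 53599989), with 21 reads (interval 13.0 to 32.1) and a fold enrichment of 10.6. Among control regions in the same one of 10 bins of fold enrichment, the second strongest, 96.3% were also called in the library labelled CTCF knockout. The nearest region of that library lay 20767 bp away. A list gives no value where no region was called, so the reads at this place in the library labelled CTCF knockout are not known, and the smallest pileup of any region in its list was 6.

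The other regions at Smc3 lay on both sides of the gene. One region 21.5 kb before the start in the library labelled CTCF knockout and 21.3 kb before it in the control had 9 reads in the library labelled CTCF knockout and 15 in the control. Its summits were 170 bp apart. The region 3.12 kb (library labelled CTCF knockout) and 3.11 kb (control) beyond the gene had 20 reads in the library labelled CTCF knockout and 23 in the control, and folds of 6.24 in the list labelled CTCF knockout and 10.4 in the control list. These folds stand on unequal backgrounds, 2.36 reads in the list labelled CTCF knockout and 1.32 in the control list. A second, weaker control region followed it (53649445 to 53649580), with 10 reads and no counterpart, 356 bp from the end of the nearest region in the other list. In its bin, the ninth from the top, 38.5% of control regions were also called.

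Rad21 (chromosome 15, 51962604 to 51993538) was the only gene of the 10 with no region in either list. Among 21887 protein-coding genes, 31.4% had none in the library labelled CTCF knockout and 27.1% none in the control. The nearest region lay just outside the limit, 50.7 kb from the gene in both lists. It was called in both, with a fold enrichment of 7.56 in the list labelled CTCF knockout and 7.45 in the control list. On the other side of the limit, the farthest regions that were counted lay 45.2 kb from Mau2.

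Stag1 (chromosome 9, 100597709 to 100958544) was the longest of the genes, at 361 kb, and had a single region. It lay at a transcription start of the plus strand inside the annotated span, 147 bp downstream of it in the library labelled CTCF knockout (100643466 to 100643730) and 161 bp downstream in the control (100643474 to 100643887). The pileup was 19 reads in the library labelled CTCF knockout (interval 11.4 to 29.7) and 30 in the control (20.2 to 42.8). The fold enrichment was 7.04 in the list labelled CTCF knockout, where the local background was 1.84 reads, and 12.0 in the control list, where it was 1.58. No other region was called along this gene or within 50 kb of it. The next one lay just outside the limit, 51.8 kb from the gene in both lists, and was called in both. Its fold enrichment was 4.58 in the list labelled CTCF knockout and 15.5 in the control list.

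Nipbl and Mau2 encode the 2 partners that load cohesin onto DNA. All regions at Nipbl (chromosome 15, 8289824 to 8465315) lay inside the gene, about 20 kb from its higher-coordinate end. The stronger had 17 reads in the library labelled CTCF knockout (8445312 to 8445567) and 20 in the control (8445234 to 8445672). In both lists it also lay within 1 kb of an end of the protein-coding gene LOC102634078. The weaker gave the only region of the library labelled CTCF knockout with no control region. It had 7 reads in the library labelled CTCF knockout (8443739 to 8443910) and 7 in the control (8443957 to 8444106), but the 2 intervals of bases did not overlap. Their edges were 47 bp apart and their summits 172 bp apart. Both were among the weakest regions described here, with folds of 4.32 in the list labelled CTCF knockout and 3.99 in the control list. A region counted as unshared in each list therefore had a neighbour of the same pileup in the other list.

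Mau2 (chromosome 8, 70014527 to 70042734, minus strand) had 2 regions, both outside the gene and both called in both libraries. One lay 12.7 kb beyond the lower-coordinate end, with 15 reads in the library labelled CTCF knockout and 16 in the control. The other lay inside Hapln4, with 15 reads in the library labelled CTCF knockout and 13 in the control. Neither of the 2 Mau2 promoter windows overlapped a region.

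Wapl, Pds5a and Pds5b act on cohesin that is already loaded. Wapl releases the ring from DNA, and the related Pds5 proteins bind it and take part both in its release and in its stable hold. Wapl (chromosome 14, 34672379 to 34747983, plus strand) had no region inside it and 2 beyond its higher-coordinate end, in a window that held no other protein-coding gene. The region 21.2 kb beyond the gene in the library labelled CTCF knockout (34769018 to 34769255) and 21.1 kb beyond it in the control (34768973 to 34769263) lay in the long non-coding RNA gene A930038B10Rik. It had 33 reads in the library labelled CTCF knockout (interval 22.7 to 46.3) and 18 in the control (10.7 to 28.4), and its summits were 18 bp apart. The ratio of pileups was 1.83 (interval 1.0 to 3.46), the only one of the 20 whose interval excluded 0.846, and it lay above it. Over all 13832 shared regions the interval lay above 0.846 in 1.42% and below it in 0.593%, and around these genes it lay above in 1 of 20 and below in none. By fold enrichment this region was number 157 in the list labelled CTCF knockout, at 18.4, and number 7126 in the control list, at 8.2. These folds stand on unequal backgrounds, 0.851 reads in the list labelled CTCF knockout and 1.32 in the control list. The second Wapl region, 30.1 kb beyond the gene in the long non-coding RNA gene Gm30969, had 16 reads in the library labelled CTCF knockout and 14 in the control.

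Pds5a (chromosome 5, 65605719 to 65698236, minus strand) had 1 region in the library labelled CTCF knockout and 2 in the control. The shared region lay inside the gene near its start. Its summit was 1281 bp downstream of the transcription start in the library labelled CTCF knockout, with 17 reads (interval 9.9 to 27.2), and 1338 bp downstream in the control, with 23 reads (14.6 to 34.5). The control-only region covered the promoter printed above and extended beyond it (65698299 to 65698554). Its summit lay 113 bp upstream of the start, with 12 reads (interval 6.2 to 21.0) and a fold enrichment of 6.48. In its bin, the sixth from the top, 64.5% of control regions were also called in the library labelled CTCF knockout.

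Pds5b (chromosome 5, 150673713 to 150810669, plus strand) had 2 regions in the library labelled CTCF knockout and 3 in the control. The region at its promoter, which holds the motif shown above, was called in both. Its summit lay 126 bp upstream of the transcription start in the library labelled CTCF knockout and 105 bp upstream in the control. The pileup was 14 reads in the library labelled CTCF knockout (interval 7.65 to 23.5) and 27 in the control (17.8 to 39.3). This ratio, 0.519, was the lowest of the 20, and its interval (0.251 to 1.02) still covered 0.846. A second shared region lay 244 bp (library labelled CTCF knockout) and 274 bp (control) upstream of the start of N4bp2l2, with 16 reads in the library labelled CTCF knockout and 19 in the control. The control-only region lay deep inside Pds5b, 44130 bp downstream of the start (150717891 to 150718042), with 14 reads and a fold enrichment of 6.47, also in the sixth bin. No region of the library labelled CTCF knockout lay within 44 kb of it.

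**Figure D2:**
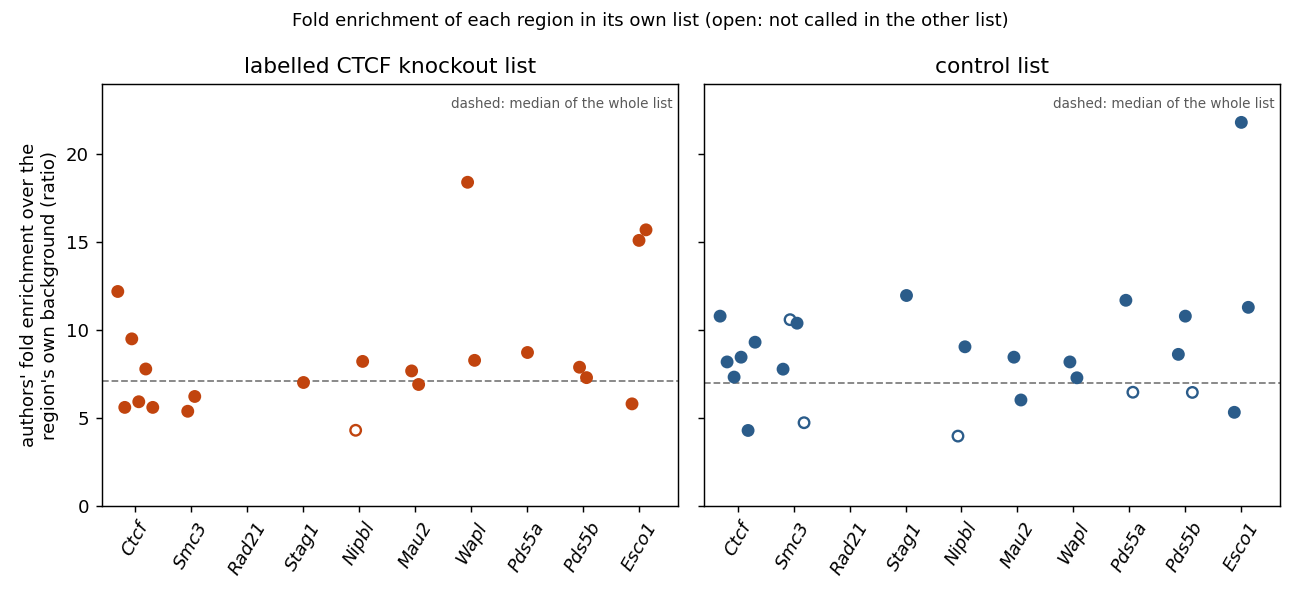
The authors' fold enrichment (ratio to the local background) of each region in the list labelled CTCF knockout (left) and the control list (right), by gene, with open circles for regions not called in the other list and a dashed line at the median of each whole list (7.13 on the left and 6.98 on the right). The highest points are the Wapl region at 18.4 on the left and the Esco1 region at 21.8 on the right, and Rad21 has none.

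Esco1 encodes an acetyltransferase that modifies Smc3 and makes cohesin resistant to release. The region at its own gene end was the strongest of all 25 in the control list. Esco1 (chromosome 18, 10566507 to 10610863) had 3 regions in each library, all called in both. The strongest control region lay just inside the higher-coordinate end of the gene. Its summit was 454 bp from that end in the library labelled CTCF knockout (10610041 to 10610544) and 459 bp in the control (10610244 to 10610560), and the summits were 5 bp apart, the closest pair of all 20. The pileup was 30 reads in the library labelled CTCF knockout (interval 20.2 to 42.8) and 45 in the control (32.8 to 60.2), a ratio of 0.667 (0.406 to 1.08). The fold enrichment was 15.1 in the list labelled CTCF knockout, where it was number 437, and 21.8 in the control list, where it was number 83. A region 6.9 kb beyond Esco1 in both lists, within 1 kb of an end of the core splicing protein gene Snrpd1, had 28 reads in the library labelled CTCF knockout and 37 in the control. Its fold enrichment was 15.7 in the list labelled CTCF knockout, the highest of the 3 there, and 11.3 in the control list. The local backgrounds were unequal, 0.851 reads in the list labelled CTCF knockout and 2.37 in the control list. The third, inside Greb1l, had 14 reads in the library labelled CTCF knockout and 17 in the control.

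Taking the 20 shared regions as a group, pileups summed to 357 reads in the library labelled CTCF knockout and 421 in the control. Their ratio was 0.848 (exact interval 0.734 to 0.979), next to 0.846 for the lowest backgrounds and 0.877 for the summed pileups of all shared regions. Only regions called in both lists enter these sums. The 5 control regions and the 1 region of the library labelled CTCF knockout without a counterpart are left out. The ratio therefore does not describe all regions around these genes. Read numbers at single regions were higher in the library labelled CTCF knockout at 5 of 20, against 28.0% of all shared regions. Summits were a median of 26.5 bp apart, and 17 of 20 lay within 100 bp of each other, against a median of 26 bp and 94.3% for all shared regions. Each summit is the highest point of its own list, so these ratios compare maxima that were found separately. Read number and fragment length both enter the ratio of backgrounds and cannot be told apart from these lists.

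**Figure D3:**
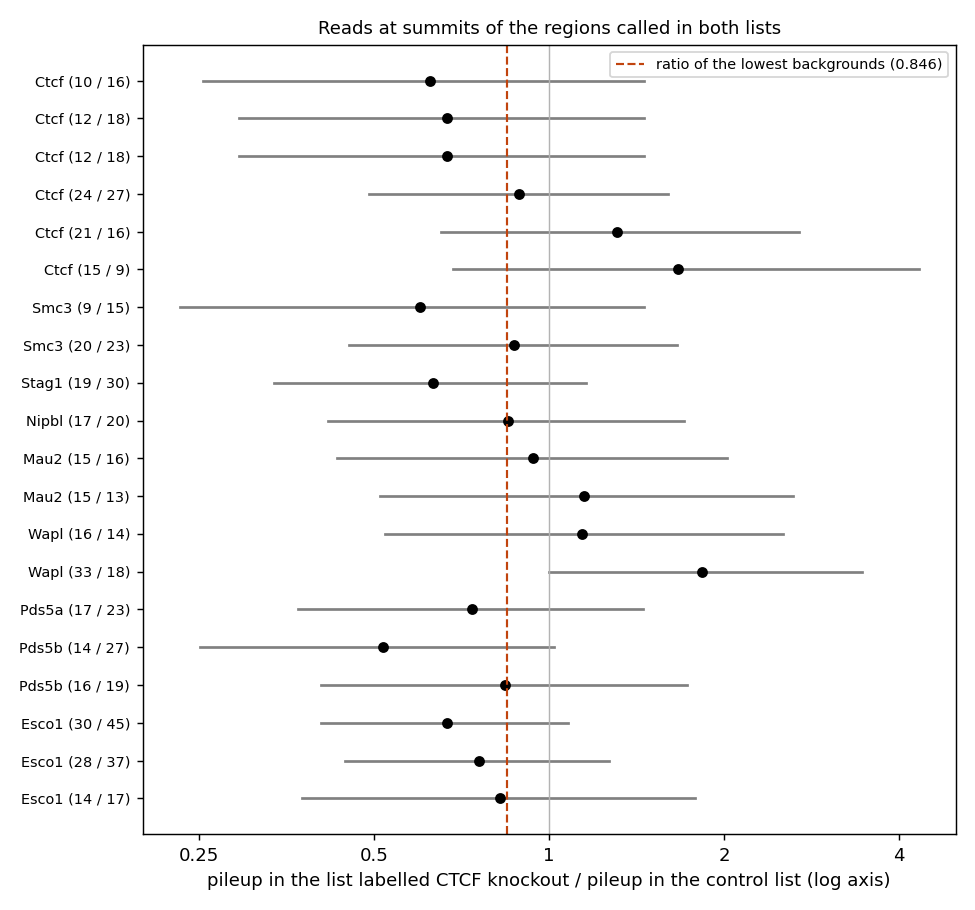
Ratio of the pileup in the library labelled CTCF knockout to the pileup in the control (log axis) at the 20 regions called in both, with exact 95% intervals for counting error and, in brackets, the reads in the library labelled CTCF knockout and in the control. The dashed line is the ratio of the lowest backgrounds, 0.846, and only the Wapl region with 33 and 18 reads has an interval that leaves it out.

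The 5 control regions without a counterpart were the Smc3 upstream region, the weaker region beyond Smc3, the weaker Nipbl region, the Pds5a promoter region and the region inside Pds5b. Their median pileup was 12 reads (range 7 to 21), and that of the 20 shared control regions 18 (range 9 to 45). They were also narrower, with a median width of 152 bp against 304 bp. A lower fold enrichment in unshared regions is a property of the whole lists as well: the control median was 5.48 for unshared and 8.14 for shared regions, and around these genes 6.47 for unshared and 8.55 for shared ones. In the control list the share also called declined from 99.0% in the strongest bin to 32.6% in the weakest. Of the 5, all but the Smc3 upstream region lay in the weaker 5 of the 10 bins. In the opposite direction, the Carmil2-end region near Ctcf lay in the weakest control bin, with 9 reads, and was called in both.

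**Figure D4:**
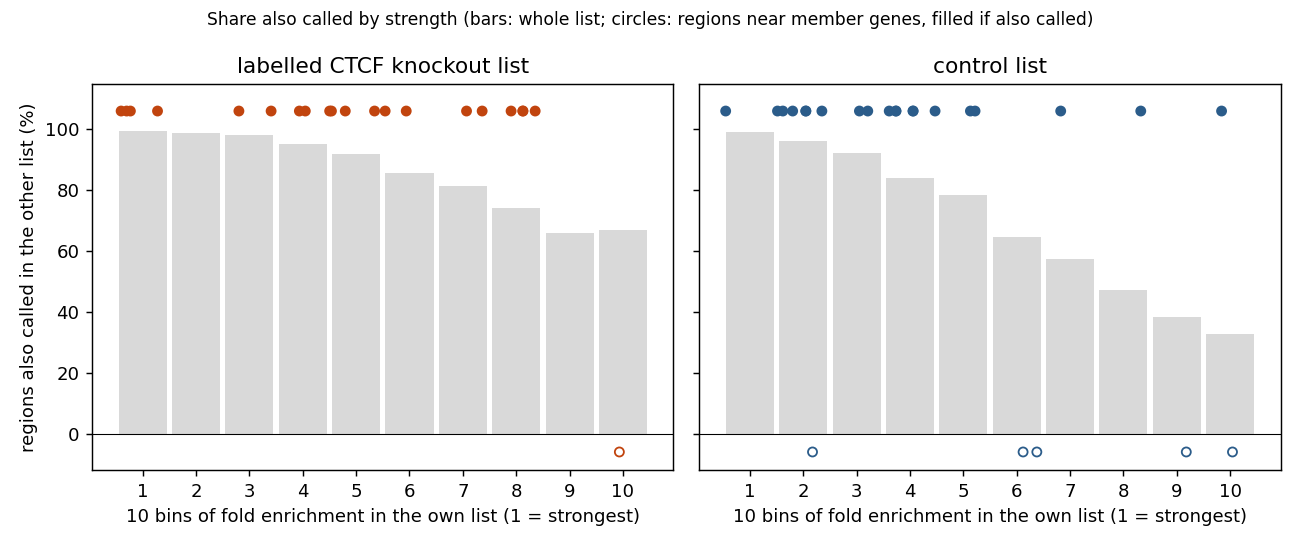
Percentage of regions also called in the other list in 10 bins of fold enrichment, from strongest (1) to weakest (10), for the whole list labelled CTCF knockout (left bars) and the whole control list (right bars). Circles place the regions near the 10 genes by their rank, above the bars if also called and open below the axis if not; the open circle in bin 2 of the control panel is the Smc3 upstream region.

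The 10 gene windows held 10.3 regions per Mb in the library labelled CTCF knockout (exact Poisson 95% interval 6.38 to 15.8), where the windows of all protein-coding genes held 12.8 per Mb. In the control there were 12.3 per Mb (7.94 to 18.1), against 15.8 per Mb for all genes. Windows of neighbouring genes overlap, so for all genes both regions and bases were counted once in each window that held them. Both intervals cover the value for all genes. The median fold enrichment was 7.69 in the list labelled CTCF knockout, whose overall median was 7.13, and 8.47 in the control list, whose overall median was 6.98. Above the median of their list, where 50% of a whole list lies, were 12 of 21 regions in the library labelled CTCF knockout and 18 of 25 in the control. Within 1 kb of an end of a protein-coding gene lay 9 of 21 regions in the library labelled CTCF knockout (42.9%, against 15.6% of its whole list) and 11 of 25 in the control (44.0%, against 17.6%). Regions here were chosen for lying near genes, and the whole lists were not. The share among regions near any protein-coding gene was not counted, so how much this choice adds was not tested. Of the 11 control regions at gene ends, 9 were also called, and the exceptions were those at Smc3 and Pds5a. Within 1 kb of an end of their own gene, regions were found for Ctcf, Pds5b and Esco1 in both libraries and for Smc3 and Pds5a in the control only. Rad21, Nipbl, Mau2 and Wapl had none there. The Stag1 region lay at a transcription start inside the span and is not among the gene-end regions.

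Other genes of sister chromatid cohesion, condensin and chromatin architecture were counted in the same way, from a list chosen with earlier results of these data known. Of 33 listed symbols 32 were matched, among them Smc1a and Stag2, further subunits of the cohesin ring, Smc2 and Smc4, the SMC pair of condensin, and Ctcfl, a testis paralogue of Ctcf. Around them 39 of 62 control regions were also called in the library labelled CTCF knockout (62.9%, interval 49.7 to 74.8%, whole control list 69.0%). In that library 10 of 49 regions had no control region (20.4%, against 14.2% of its whole list). No region was called in the library labelled CTCF knockout near 10 of the 32 genes and in the control near 9. Among all protein-coding genes, 31.4% had none in the library labelled CTCF knockout and 27.1% none in the control, close to these shares. Of the 32 genes, 8 had none in either list, among them Smc1a, Smc2 and Smc4. Stag2 had 1 region in each list, shared, while near Ctcfl 6 of 7 control regions were also called. Condensin subunit gene Ncapd2 had 1 region in the library labelled CTCF knockout and 5 in the control, with no overlap between them. It is named as the gene of the 32 with the most control regions lacking a counterpart, and the strengths of these regions were not compared. The strongest shared control region lay 16.8 kb from Ldb1, a looping cofactor gene, and its fold enrichment was 9.86 in the list labelled CTCF knockout and 15.4 in the control list. The strongest control region with no counterpart lay inside Maz, a zinc-finger factor gene, at 8.47. The strongest region found only in the library labelled CTCF knockout lay inside Zfp143, another zinc-finger factor gene, at 9.19. The window of Zfp143 also held 1 control region, which did not overlap it. The interval of 49.7 to 74.8% overlaps that of the 10 genes, 59.3 to 93.2%, and the difference between the groups was not tested.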

How the data were processed

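CTCF ChIP-seq regions of 1 library per genotype were used, each from cardiac myocytes pooled from 3 hearts, per the labels' protocols. The 2 input libraries were not analysed here. The submitters' processing notes name MACS2, SAMtools 0.1.19, Bowtie2 2.2.6 and the build mm10. The authors called regions per library and deposited for each a fold enrichment (a ratio over local background), a −log10 p, a −log10 q, a summit position and a score; in 100% of regions the deposited score was the −log10 q times 10, rounded down. The lowest deposited −log10 q was 1.37 in the list labelled CTCF knockout and 1.32 in the control list. Thresholds and duplicate handling are not stated there.

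Gene spans came from a RefSeq table of GRCm38.p6, the assembly of mm10, for chromosomes 1 to 19, X and Y. Distances were measured from the summit to the gene span. Overlap of at least 1 bp counted as shared. Pileup and background were solved from (pileup + 1) / (background + 1) for the fold enrichment and the upper Poisson tail for p. This step was tested on data simulated with the same formulas, which checks the solving and not the formulas themselves. Intervals are exact (Clopper-Pearson or Poisson, 95%) and cover counting error only; the lists give no library totals. All 10 genes and all their regions are named. The members, the lists of other genes, the tests and the settings were chosen with earlier results of these data known. The planned motif search over whole regions was made in promoter windows only, since no genome sequence was used. Software was scipy 1.17.1, pandas 2.3.3 and numpy 2.4.6 under Python 3.11.15, with matplotlib 3.10.9.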

Additional observations from a re-analysis of the deposited data

How the results depend on the processing

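No paired analysis was possible because there was a single library for each genotype. The share of control regions near the 10 genes that were also called was 80.0% at the settings reported. It was 66.7% for summits within 10 kb and 71.7% for summits within 100 kb of a gene (whole control list 69.0% throughout). It was 68.0% when the overlap had to cover at least 50% of both regions (59.8% of the whole control list) and 68.0% when the summits had to lie within 100 bp (65.2%). With a minimum of 5 it was 81.8% for the −log10 q (whole list 71.6%) and 86.4% for the fold enrichment (71.3%). These values lay within the interval of 59.3 to 93.2%, and leaving out each gene in turn gave 73.7% to 85.7%. The share of regions in the library labelled CTCF knockout with no control region was 4.76% as reported and 19% (4 of 21) under both other overlap rules (whole list 25.7% with the 50% rule and 19% with summits within 100 bp). It was 9.09% for summits within 10 kb and 5.71% within 100 kb (whole list 14.2% in both cases). With the minimum of 5 it was 5.26% for the −log10 q (whole list 16.2%) and 5.0% for the fold enrichment (16.8%). These shares near the 10 genes lay within the interval of 0.12 to 23.8%. Leaving out Nipbl, which holds the single such region, gave 0.0% of 19 regions (upper limit 17.6%). Of the values for single genes 50 lay within the interval that the gene had at the settings reported and 2 did not. Both were for Nipbl, whose weaker region falls below the minimum of 5 on both scales. Single-gene intervals were wide, for example 2.5 to 100% for Stag1 and 6.76 to 93.2% for Smc3. Few values could therefore fall outside them, and the count does not measure stability. The planned comparison of motif windows around summits was not run, since no genome sequence was used. With 1 library per genotype and few regions per gene, depth limits what can be seen: intervals of single pileup ratios span several-fold.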
